A study of Homo sapiens with 12 samples.

Results

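The aryl hydrocarbon receptor (AHR) module was examined as 7 genes: the receptor AHR, its partner ARNT, the feedback genes AHRR and TIPARP, and the 3 CYP1 family members CYP1A1, CYP1A2 and CYP1B1. The members were taken by gene symbol from the count table of each cell line, and all 7 of them were found among the 58735 gene names that each table lists. They had been proposed because CYP1A1 was lower in Erastin-treated SK-N-AS cells, so all member values of that contrast are given here as a description, with no test. Bulk RNA-seq was available for 12 samples of 2 human neuroblastoma (NB) cell lines, KELLY, which carries extra copies of MYCN, and SK-N-AS, which does not. In KELLY, 3 samples received DMSO and 3 received 1 µM Erastin. In SK-N-AS, 3 samples received DMSO and 3 received 2 µM Erastin. All 12 samples were taken at 24 h, and since the doses differed, dose and line cannot be told apart in the Erastin samples. Erastin blocks the cystine/glutamate antiporter and induces ferroptosis, an iron-dependent form of cell death. The study asked how these NB lines respond to it. The samples of a group were seeded as replicates of 1 established line in multiwell plates, so their spread may be technical and p-values measure only the spread between these samples.

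AHR is a ligand-activated transcription factor of the bHLH-PAS family that waits in the cytosol, bound to HSP90. Dioxins, other planar aromatic compounds and tryptophan metabolites bind it, after which it enters the nucleus, pairs with ARNT and binds xenobiotic response elements (XREs) before its target genes. CYP1A1 and CYP1B1 are the classical targets and encode cytochrome P450 monooxygenases that oxidise aromatic compounds and estrogens. CYP1A2 is the hepatic member of the family. AHRR, a repressor that competes for ARNT, and TIPARP, a mono-ADP-ribosyltransferase that marks AHR for breakdown, are targets that dampen the pathway.

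The XRE carries the core GCGTG, here also searched in the extended form TNGCGTG, on both strands, in the 1500 bases before each RefSeq transcription start (hg38). The core also occurs within the hypoxia response element, and every extended match contains a core match. RefSeq windows were at hand for 6 of the 7 members, not for CYP1B1. CYP1A1 (minus strand of chromosome 15, start at position 74725528) had 10 core and 5 extended matches. Of 35107 windows of the same length, 72.9% held the core, with a median of 1 match, and 23.2% held the extended form. At least 10 core matches were found in 0.63% of these windows and at least 5 extended matches in 0.0228%, or 8 windows. The 5 extended matches before CYP1A1 are shown because they are what sets this window apart from those of the other members. The match is in capitals with 6 bases on each side, each is written 5′ to 3′ on the strand that reads TNGCGTG, and the name gives the distance from the start to the far end of the match.
CYP1A1, 1385 bases before the start, chr15:74726901-74726919, plus strand: ttgtatTTGCGTGcctagc
CYP1A1, 1061 bases before the start, chr15:74726577-74726595, minus strand: ccccccTCGCGTGactgcg
CYP1A1, 986 bases before the start, chr15:74726502-74726520, plus strand: caggcgTTGCGTGagaagg
CYP1A1, 898 bases before the start, chr15:74726414-74726432, plus strand: gctagcTTGCGTGcgccgg
CYP1A1, 503 bases before the start, chr15:74726019-74726037, plus strand: cccggcTCGCGTGagaagc

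The other windows held fewer extended matches. AHRR had 1, shared by the windows of its 2 starts, TIPARP had 1 before 1 of its 3 starts, ARNT had 2, and AHR and CYP1A2 had none. The AHRR and TIPARP elements are shown because both genes were lower, beside CYP1A1, in Erastin-treated SK-N-AS cells.
AHRR, 32 bases before its first start, chr5:321676-321694, plus strand: ggcggcTCGCGTGccgggg
TIPARP, 676 bases before the start listed last, chr3:156675982-156676000, plus strand: gcgcgcTTGCGTGtgtacg
A match is a string of letters, and binding was not measured in these samples.

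**Figure D1:**
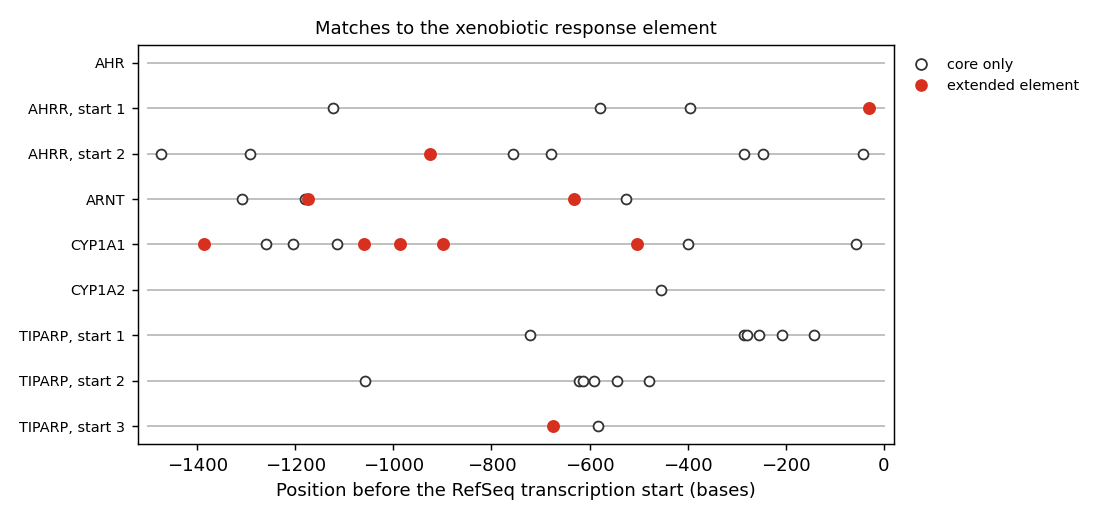
Matches to the XRE in the 1500 bases before each RefSeq start of 6 genes, with the position in bases before the start on the x axis and 1 row per start. Filled red points are matches to the extended form, open points are further matches to the core, and CYP1A1 shows 5 red points, more than any other row. Windows of neighbouring starts of AHRR and of TIPARP overlap, so the same match can appear in 2 rows.

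The 300 bases around the CYP1A1 start (250 before it and 50 after it) held 1 core match and no extended one. Core matches were present in 36.5% of 35116 such windows and extended ones in 5.5%. The window is shown whole, in the direction of the gene and with the core in capitals. It was picked because, among the members with enough counts to be fitted, CYP1A1 had the lowest ratio of Erastin to DMSO in SK-N-AS.
CYP1A1 window, chr15:74725479-74725778, minus strand: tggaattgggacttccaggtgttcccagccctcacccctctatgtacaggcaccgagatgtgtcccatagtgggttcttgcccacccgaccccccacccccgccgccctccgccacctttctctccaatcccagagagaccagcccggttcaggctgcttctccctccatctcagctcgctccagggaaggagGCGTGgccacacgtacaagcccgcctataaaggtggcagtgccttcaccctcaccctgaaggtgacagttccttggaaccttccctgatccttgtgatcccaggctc

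Total counts ran from 24169796 to 29835670 per sample, and 5.51% to 8.05% of them came from mitochondrial genes. Libraries of 1 group differed in how their counts followed GC content, with a Spearman correlation of gene ratio and GC between -0.83 and 0.86 among KELLY libraries and between -0.75 and 0.77 among SK-N-AS libraries. The labels call both lines neuroblasts. All 9 sympathetic neuroblast markers and all 7 mesenchymal state markers had over 10 counts in every library. On the CPM scale (counts scaled to a common library total) the neuroblast markers summed to 2970 to 6650 CPM in KELLY and to 1120 to 1310 CPM in SK-N-AS, and the mesenchymal markers to 122 to 176 CPM in KELLY and to 4300 to 4940 CPM in SK-N-AS. Hepatocyte markers summed to at most 1.09 CPM and epithelial markers to at most 3.79 CPM. Of the blood markers, PTPRC alone passed 10 counts in every SK-N-AS library, with 12835 to 16496 counts there and 0 in every KELLY library, where the blood markers summed to at most 15.5 CPM. The part of these markers in the results was not tested.

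To compare the module at rest, DMSO samples of both lines were set side by side. SK-N-AS cells held far more AHR, AHRR, CYP1A1 and CYP1B1 RNA than KELLY cells, moderately more TIPARP, and slightly less ARNT. Across genes, levels are given as RPKM, the CPM per kilobase of exon, and between lines as log2 fold changes ± SE from edgeR (quasi-likelihood test), and p-values were adjusted by Benjamini-Hochberg over 17089 genes. In bulk RNA, fewer cells of a kind and less RNA per cell cannot be told apart.

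AHR itself (chr7:16916359-17346152, hg38) had 1473, 1452 and 1820 counts in the SK-N-AS DMSO samples and 24, 17 and 21 in the KELLY DMSO samples. The groups lay far apart, and AHR was 75.3-fold higher in SK-N-AS (log2 fold change 6.23 ± 0.22, edgeR adjusted p = 1.36e-07). ARNT (chr1:150809713-150876708), the obligate partner, had 1870, 1753 and 1796 counts in SK-N-AS against 2248, 2302 and 2786 in KELLY. It was lower in SK-N-AS, at 0.733 of the KELLY level (log2 fold change -0.45 ± 0.12, edgeR adjusted p = 0.0118). Scaled to depth, the ARNT groups did not overlap. The ARNT call was lost, with an edgeR adjusted p of 0.0625, 0.0545 and 0.0672, when SK-N-AS DMSO replicate 2, SK-N-AS DMSO replicate 3 or KELLY DMSO replicate 3 was left out.

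The feedback genes were likewise higher in SK-N-AS. AHRR (chr5:321714-438291) had 1329, 1008 and 921 counts in SK-N-AS and 17, 51 and 47 in KELLY, a 27.9-fold difference (log2 4.80 ± 0.36, edgeR adjusted p = 5.76e-06). Every SK-N-AS sample exceeded every KELLY sample. TIPARP (chr3:156673235-156706770) had 2091, 2087 and 2430 counts in SK-N-AS and 780, 469 and 684 in KELLY. Its difference was the smallest of the higher members, 3.39-fold (log2 1.76 ± 0.19, edgeR adjusted p = 6.05e-05).

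Among the monooxygenases, CYP1B1 (chr2:38066973-38109902) had 11202, 10823 and 12990 counts in SK-N-AS against 263, 166 and 210 in KELLY, 54.1-fold (log2 5.76 ± 0.21, edgeR adjusted p = 1.53e-07). CYP1A1 (chr15:74719542-74725536) had 99, 83 and 102 counts in SK-N-AS and 1, 3 and 2 in KELLY. The summed counts of 284 and 6 gave a depth-corrected ratio of 46.3 with a 95% exact counting interval of 21 to 127, which covers counting error only. CYP1A1 passed the filter on low counts through SK-N-AS alone, so its difference between the lines is given with no test. CYP1A2 (chr15:74748845-74756607) was too low to be tested, with 0, 0 and 2 counts in each line. At this depth no difference in CYP1A2 was detectable.

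Of the 7 members, CYP1A2 was too low in both lines, CYP1A1 passed the filter through SK-N-AS alone, and the other 5 passed in each line's own samples. All 5 differed between the lines, 4 higher and 1 lower in SK-N-AS. The lines differed widely: of the 14310 genes that passed in each line, 56.3% were called, 28.1% higher and 28.3% lower, and 62.3% had groups that did not overlap. The count of members is thus no result about the module.

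**Figure D2:**
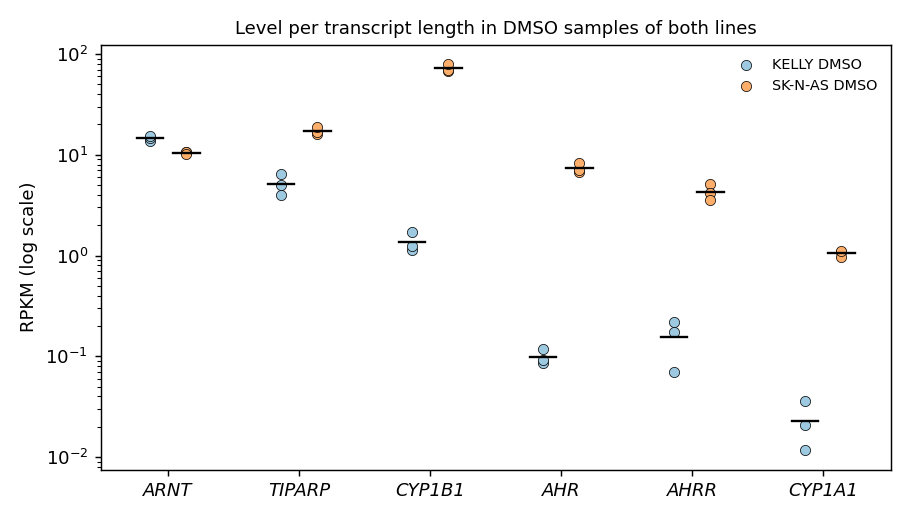
RPKM (log scale) of 6 genes in the DMSO samples, with 1 point per sample, 3 samples per line and a bar at the mean. AHR, AHRR, CYP1A1 and CYP1B1 stand apart by more than a factor of 10 between the lines, while ARNT sits slightly lower in SK-N-AS; CYP1A2, at 0 in most samples, is not drawn.

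Per length, the order of levels differed between the lines. In SK-N-AS DMSO samples CYP1B1 led at 72.6 ± 6.16 RPKM (SD, n = 3), followed by TIPARP at 17.2 ± 1.38, ARNT at 10.5 ± 0.189, AHR at 7.36 ± 0.87, AHRR at 4.29 ± 0.789 and CYP1A1 at 1.05 ± 0.0833 RPKM. No neighbours in that order overlapped. In KELLY DMSO samples ARNT led at 14.5 ± 0.808 RPKM, before TIPARP at 5.14 ± 1.20 and CYP1B1 at 1.36 ± 0.313. AHRR at 0.155 ± 0.0766 RPKM and AHR at 0.0985 ± 0.0163 RPKM overlapped, and so did CYP1A1 at 0.023 ± 0.0125 and CYP1A2 at 0.00753 ± 0.013 RPKM. The sample ranges of both AHR and AHRR in KELLY thus lay far under that of ARNT.

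Annotation may limit these levels for some members. In GENCODE release 44, AHRR shares 58.7% of its exonic bases with the readthrough gene PDCD6-AHRR. AHR shares 29.5% with ENSG00000283321, a protein-coding gene on the same strand. Neither name was matched among the counted genes, which follow GENCODE release 29. CYP1B1 shares 678 exonic bases, 11.3% of its own, with CYP1B1-AS1 on the opposite strand, and whether strand was used in counting is not given in the sources used here. CYP1B1-AS1 had 32, 32 and 26 counts in SK-N-AS DMSO samples and 18, 18 and 18 in SK-N-AS Erastin samples, far under the counts of CYP1B1. TIPARP-AS1 shares no exonic base with TIPARP.

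The next comparison set 2 µM Erastin against DMSO in SK-N-AS. The monooxygenases CYP1A1 and CYP1B1 and the feedback genes TIPARP and AHRR had lower values in every Erastin sample than in any DMSO sample. The difference was largest for CYP1A1, which reached 0.463 of its DMSO level. AHR lay slightly lower with overlap, and ARNT slightly higher. Since the members were chosen with this contrast in view, the values below are a description and no p is given for any member.

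CYP1A1 had 99, 83 and 102 counts under DMSO and 47, 53 and 36 under Erastin, a log2 fold change of -1.11 ± 0.19. CYP1B1 had 11202, 10823 and 12990 counts under DMSO and 7778, 8542 and 7643 under Erastin. Depth-corrected, the 3 Erastin samples lay close together while the DMSO samples spread more, and the log2 fold change was -0.59 ± 0.08. CYP1A2 had 0, 0 and 2 counts under DMSO and 0, 3 and 3 under Erastin, a ratio of 2.90 with a 95% exact counting interval of 0.519 to 29.4, so no change was detectable.

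TIPARP had 2091, 2087 and 2430 counts under DMSO and 1512, 1698 and 1435 under Erastin, a log2 fold change of -0.56 ± 0.09. Its difference was nearly that of CYP1B1. AHRR had 1329, 1008 and 921 counts under DMSO and 844, 932 and 693 under Erastin (log2 fold change -0.45 ± 0.13). In raw counts Erastin replicate 2 slightly exceeded the lowest DMSO sample, and on the CPM scale the groups were separate. AHR had 1473, 1452 and 1820 counts under DMSO and 1388, 1368 and 1422 under Erastin, and its groups overlapped after depth correction (log2 fold change -0.23 ± 0.11). ARNT had 1870, 1753 and 1796 counts under DMSO and 2037, 2263 and 1789 under Erastin, which in CPM put the Erastin samples above the DMSO samples by a small margin (log2 fold change 0.12 ± 0.08).

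**Figure D3:**
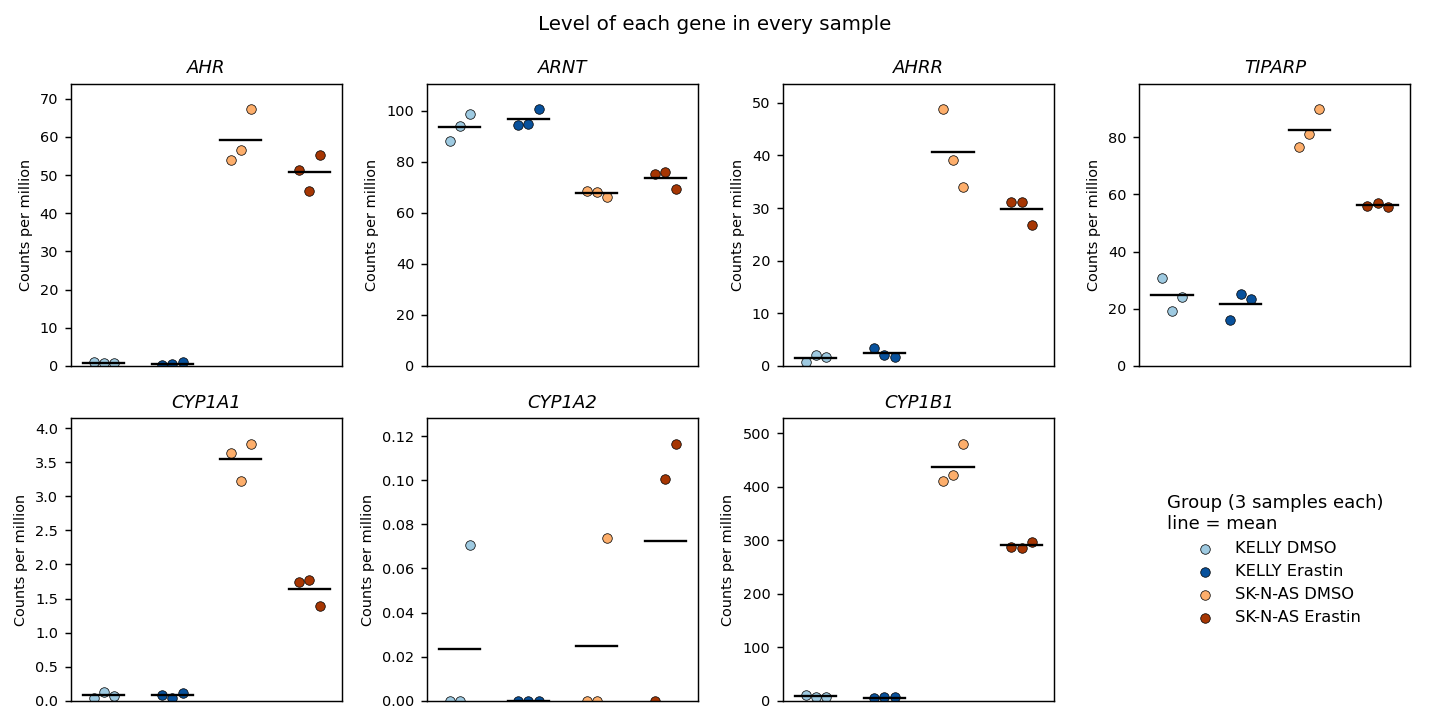
CPM of each of the 7 genes in every sample, 1 panel per gene with its own linear axis from 0, 3 points per group and a bar at the group mean. In SK-N-AS the Erastin points of CYP1A1, CYP1B1, TIPARP and AHRR all sit below the DMSO points, while in KELLY all points of AHR, AHRR, CYP1A1 and CYP1B1 lie near the bottom of the axis.

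Of the 6 members that passed the filter, 4 were lower without overlap, where 7.2% of all genes tested were, and 1, ARNT, was higher without overlap, where 7.76% were. The fit over 16095 genes put 3 members (CYP1A1, CYP1B1 and TIPARP) and 0.199% of all genes among its lower calls at an adjusted p under 0.05, and with the trend in GC content removed 5 members, every one but ARNT, and 3.46% of all genes. These calls rest on the values that chose the members, so they are no test of them and nothing is read from them. They also moved with the libraries. CYP1B1 alone stayed among them when SK-N-AS DMSO replicate 2 or any 1 of the 3 SK-N-AS Erastin replicates was left out. No member did when all 12 samples shared 1 fit. Calls over all genes, in either direction, fell from 106 to between 46 and 77 in these fits.

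The order of levels per length in SK-N-AS shifted at 1 place. With Erastin, TIPARP at 11.7 ± 0.136 RPKM (SD, n = 3) and ARNT at 11.4 ± 0.559 RPKM overlapped, whereas they were apart with DMSO. CYP1B1 stayed first at 48.2 ± 0.907 RPKM. AHR at 6.31 ± 0.581, AHRR at 3.14 ± 0.266 and CYP1A1 at 0.487 ± 0.0624 RPKM kept their places without overlap.

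GC content moved with the spread of these libraries. The GC content of the longest transcript was 38.2% for AHR, 42.8% for TIPARP, 44% for CYP1B1, 46.2% for ARNT, 53.1% for CYP1A1 and 57.9% for AHRR. In the SK-N-AS DMSO samples the correlation of the gene ratio with GC content was 0.77, 0.24 and -0.75 in replicates 1, 2 and 3. AHRR and ARNT had their highest DMSO level in replicate 1, and AHR, TIPARP, CYP1B1 and CYP1A1 had theirs in replicate 3, an order that does not follow the GC content of all 6 genes. With this trend removed, the log2 fold changes were -1.12 ± 0.19 for CYP1A1, -0.61 ± 0.04 for CYP1B1, -0.57 ± 0.05 for TIPARP, -0.42 ± 0.07 for AHRR, -0.23 ± 0.05 for AHR and 0.10 ± 0.05 for ARNT. The sizes thus moved by at most 0.03, while the SE of 5 of these 6 genes became smaller.

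In KELLY, 1 µM Erastin gave no call in the module. The receptor, its repressor and CYP1A1 stood at low counts there, and the spread between libraries was wider than in SK-N-AS. Of 7 members, 5 passed the filter on low counts, and none had an adjusted p under 0.05 in edgeR, DESeq2 or limma-voom, or an unadjusted edgeR p under 0.05. Over all 16258 genes tested, 0.00615% were called, which is 1 gene.

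CYP1B1 had 263, 166 and 210 counts under DMSO and 111, 167 and 172 under Erastin in KELLY. Depth-corrected, its Erastin samples all lay under its DMSO samples, as was the case for 4.3% of all genes, and its log2 fold change was -0.49 ± 0.24 with a 95% interval from -1.05 to 0.07 (edgeR adjusted p = 0.770). CYP1A1 had 1, 3 and 2 counts under DMSO and 2, 1 and 3 under Erastin, a ratio of 1.01 with a 95% exact counting interval of 0.271 to 3.80. This interval also holds the CYP1A1 ratio of SK-N-AS, 0.463. CYP1A2 had 0, 0 and 2 counts with DMSO and 0 in the 3 Erastin samples.

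TIPARP had 780, 469 and 684 counts under DMSO and 386, 648 and 637 under Erastin in KELLY, with overlapping groups (log2 fold change -0.19 ± 0.25, edgeR adjusted p = 0.780). AHRR had 17, 51 and 47 counts under DMSO and 83, 53 and 44 under Erastin (log2 0.69 ± 0.46, edgeR adjusted p = 0.770). AHR had 24, 17 and 21 counts under DMSO and 6, 12 and 26 under Erastin (log2 -0.50 ± 0.51, edgeR adjusted p = 0.770). ARNT had 2248, 2302 and 2786 counts under DMSO and 2281, 2443 and 2737 under Erastin (log2 0.05 ± 0.13, edgeR adjusted p = 0.889). The groups of these 4 genes overlapped. For TIPARP, the 95% interval of -0.77 to 0.38 includes the SK-N-AS value. For AHRR, at 17 to 83 counts per KELLY library, the interval of -0.39 to 1.77 does not include the SK-N-AS value of -0.45. On simulated KELLY counts, edgeR recovered 52 of 100 genes changed 2-fold and 98 of 100 changed 4-fold, so differences of the size described in SK-N-AS could be missed in KELLY.

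**Figure D4:**
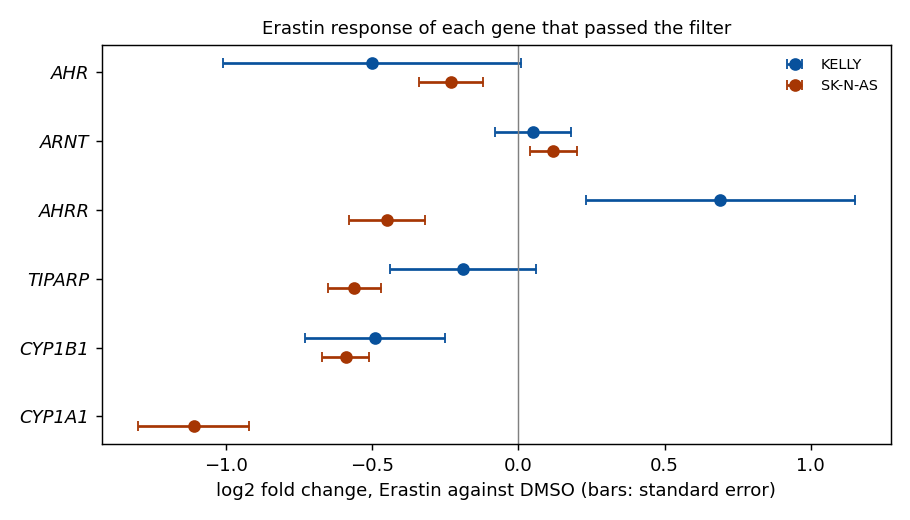
Log2 fold change of Erastin against DMSO for each gene that passed the filter, with bars of 1 SE, KELLY in blue and SK-N-AS in brown. CYP1A1 (SK-N-AS only, -1.11), CYP1B1, TIPARP and AHRR lie left of 0 in SK-N-AS. In KELLY the bars of AHR, ARNT and TIPARP cross 0. The KELLY bar of CYP1B1 lies left of 0 and that of AHRR to its right, with no KELLY gene past the threshold.

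Side by side, the response in SK-N-AS minus that in KELLY was -0.11 ± 0.23 on the log2 scale for CYP1B1, -0.37 ± 0.26 for TIPARP, -1.14 ± 0.46 for AHRR, 0.25 ± 0.41 for AHR and 0.06 ± 0.14 for ARNT. For CYP1A1 it was -1.14 ± 0.66, with 6 counts in all in either KELLY group. The differences of CYP1B1, AHR and ARNT were smaller than their SE. With the GC trend removed they became -0.26 ± 0.12 for CYP1B1, -0.55 ± 0.13 for TIPARP, -0.87 ± 0.26 for AHRR, -1.03 ± 0.70 for CYP1A1, -0.03 ± 0.32 for AHR and -0.02 ± 0.11 for ARNT, so AHR and ARNT changed sign. These differences include the SK-N-AS contrast that the members were chosen on and were given no test.

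Over the 6 SK-N-AS samples, genes were ranked by the Pearson correlation of their log2 CPM with CYP1B1 and with CYP1A1, as a description over samples that share depth, GC trend and the treatment step. Among 12448 genes compared, TIPARP was the one nearest to CYP1B1 (r = 0.995), before TPBG, DIXDC1, EXOSC10 and FLT1 (r = 0.994, 0.993, 0.991 and 0.990). At least 0.95 was reached by 73 genes. The steps of these genes differed in size, from a log2 fold change of -0.06 for EXOSC10 to -0.56 for TIPARP. The genes nearest to CYP1A1 were ARHGAP6, ANXA10, NFX1, MYH15 and PDCD2 (r = 0.996, 0.990, 0.987, 0.987 and 0.986), and 68 genes reached 0.95. No further member was among the 5 nearest to CYP1A1. With the members, CYP1A1 correlated at 0.96 for TIPARP, 0.95 for CYP1B1, 0.82 for AHRR, 0.61 for AHR and -0.7 for ARNT.

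Genes around the receptor were taken from 7 lists. None of the 70 list genes tested in KELLY passed with Erastin in edgeR, DESeq2 or limma-voom, and 3 had an unadjusted p under 0.05 in each tool. In SK-N-AS, before GC removal, 3 of 72 list genes rose with Erastin and none was called lower. The threshold was an edgeR adjusted p under 0.05, which 0.659% of all genes passed. The same 3 were called by limma-voom, and DESeq2 called EPAS1 and NPAS3 beside them. NQO1, a quinone reductase that both AHR and NRF2 can induce, had 6760 to 6909 counts with DMSO and 8634 to 11158 with Erastin (log2 0.44 ± 0.08, edgeR adjusted p = 0.0362). It was the only one of the 3 tested genes of the AHR battery outside CYP1 to pass, and it rose while CYP1A1 and CYP1B1 were lower. ABCG2 had a log2 fold change of -0.47 ± 0.25 and NFE2L2 of 0.07 ± 0.1 (edgeR adjusted p = 0.651 and 0.916).

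Heme genes gave the other rises. HMOX1, which breaks heme down, had 78 to 123 counts with DMSO and 284 to 499 with Erastin (log2 1.91 ± 0.21, edgeR adjusted p = 0.000457). FECH, which puts iron into heme, had 1260 to 1275 counts and 1725 to 2147 counts (log2 0.51 ± 0.09, edgeR adjusted p = 0.0206). The other 15 of 17 tested electron donors and heme genes, P450 reductase POR among them, did not pass. The NQO1 and FECH calls were lost without SK-N-AS DMSO replicate 2 (edgeR adjusted p = 0.174 and 0.142) and without each of the SK-N-AS Erastin replicates (0.0721 to 0.276 for NQO1 and 0.0723 to 0.187 for FECH). In KELLY, HMOX1 had 163 to 376 counts with DMSO and 445 to 865 with Erastin. This KELLY difference was upward too but did not pass (log2 1.22 ± 0.37, edgeR adjusted p = 0.77).

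Before GC removal the remaining lists held no edgeR call in SK-N-AS with Erastin, and the values after the next 3 sentences are from that fit. With the GC trend removed, 946 of 16095 genes had an edgeR adjusted p under 0.05. EPAS1 and TDO2 were then called higher (adjusted p = 0.00394 and 0.048). HIF3A, NPAS3, HSP90AA1 and NPAS2 were called lower (adjusted p = 0.0085, 0.0116, 0.0425 and 0.048), and no further gene of these lists was called. None of the 8 AHR chaperone and degradation genes passed, with HSP90AB1 at 2670 ± 51.3 CPM with DMSO and 2510 ± 27.6 CPM with Erastin (SD, n = 3). None of 10 other bHLH-PAS factors, 13 other cytochrome P450 genes and 15 other PARP family members passed. Of 6 tested tryptophan breakdown genes none passed either. TDO2, which opens the tryptophan ring on the way to kynurenine, had 1707 to 2220 counts with DMSO and 2226 to 2615 with Erastin (log2 0.23 ± 0.11, edgeR adjusted p = 0.586). In medians, the lists lay between -0.13 and 0.07 on the log2 scale, beside -0.01 over all genes tested.

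**Figure D5:**
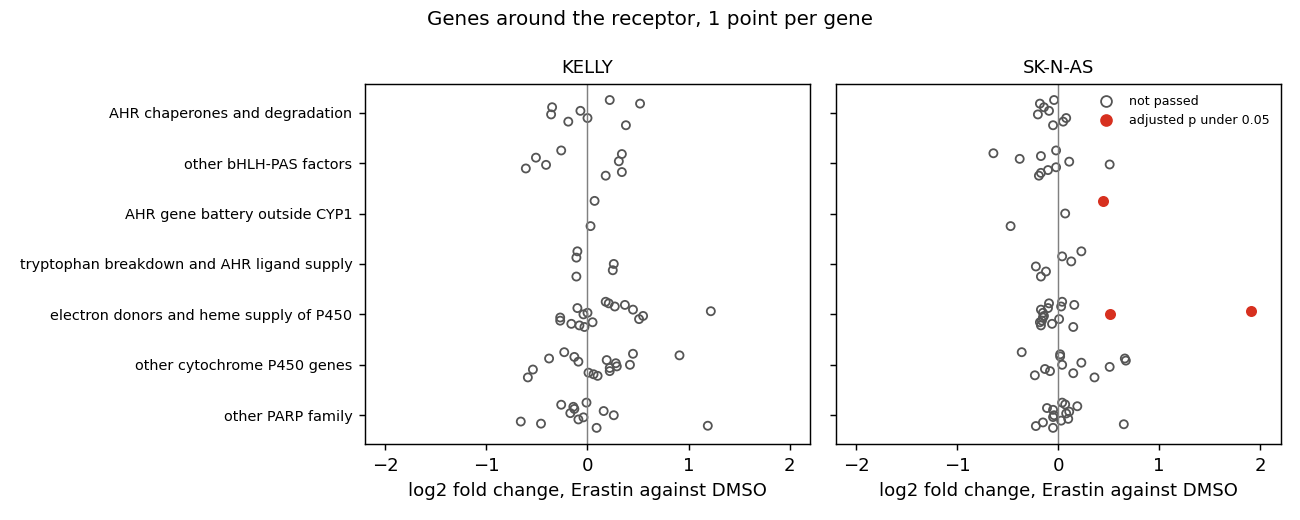
Log2 fold change of Erastin against DMSO for the tested genes of 7 lists around the receptor, KELLY on the left and SK-N-AS on the right. Each gene is 1 point, filled red where the adjusted p was under 0.05 in the fit before GC removal. In SK-N-AS 3 points are filled, NQO1, FECH and HMOX1, all to the right of 0, and in KELLY none is.

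Between DMSO samples of the lines, the supply and partner genes differed in both directions. List counts below cover the genes that passed the filter in each line, and genes that passed through 1 line alone are given by their counts, with no test. TDO2 had 1707 to 2220 counts in SK-N-AS and 0 in every KELLY library, at least 632-fold higher in SK-N-AS against a floor of 3 counts per library. QPRT, which leads on to NAD, was lower in SK-N-AS (log2 -1.95 ± 0.16, edgeR adjusted p = 9.71e-06), KYAT1 was higher (log2 0.72 ± 0.24, edgeR adjusted p = 0.0291) and the other 3 of 5 did not pass. The KYAT1 call was lost when SK-N-AS DMSO replicate 1, SK-N-AS DMSO replicate 2 or KELLY DMSO replicate 3 was left out, with an adjusted p of 0.0935, 0.0883 and 0.102. IDO1 had 0 counts in all 12 libraries.

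Of the other bHLH-PAS factors, 4 were higher and 2 lower in SK-N-AS among 8 that passed in each line. ARNT2, a close relative of ARNT, had 72 to 84 counts in SK-N-AS and 1697 to 2504 in KELLY (log2 -4.83 ± 0.20, edgeR adjusted p = 2.42e-07). EPAS1, the hypoxia factor HIF-2 alpha, was likewise lower in SK-N-AS (log2 -5.16 ± 0.18, edgeR adjusted p = 1.36e-07). NPAS2 and HIF3A, which passed through SK-N-AS alone, had 3208 to 3753 and 682 to 886 counts in SK-N-AS and 0 or 1 count in each KELLY library. ARNT itself was well counted in both lines, and ARNT2 stood beside it mainly in KELLY.

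Of the battery genes outside CYP1, 2 passed in each line, and both were higher in SK-N-AS with DMSO. NQO1 was higher by 3.45 ± 0.14 on the log2 scale (edgeR adjusted p = 2.14e-07) and NFE2L2, which encodes NRF2, by 1.45 ± 0.17 (edgeR adjusted p = 9.16e-05). ABCG2, a drug exporter, was at least 14-fold higher, with 40 to 47 counts against 0 in every KELLY library. The other 5 battery genes listed did not pass the filter. Of the chaperone list, STUB1, a ubiquitin ligase, and HSP90AA1 were higher (log2 1.91 ± 0.35 and 0.68 ± 0.13, edgeR adjusted p = 0.00134 and 0.00159), DDB1 was lower (log2 -0.42 ± 0.11, edgeR adjusted p = 0.0105) and 5 did not pass. The DDB1 call was lost under 3 of 16 alternatives, with an adjusted p of at most 0.0565. These include the fits without SK-N-AS DMSO replicate 2 or 3 (adjusted p = 0.0547 and 0.053).

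Of the other P450 genes, 11 passed in each line, of which 3 were higher and 4 lower in SK-N-AS and 4 did not pass the test. Their median log2 fold change was -0.18, beside -0.02 over all genes that passed in each line. CYP4V2, a fatty acid hydroxylase, was higher (log2 4.17 ± 0.26, edgeR adjusted p = 2e-06). CYP2C8 and CYP26B1, which clears retinoic acid, had 52 to 97 and 33 to 46 counts in KELLY and 0 or 1 count in each SK-N-AS library, and CYP3A7 was at least 13.8-fold lower in SK-N-AS. Of the P450 electron donors and heme genes, 7 were higher and 4 lower among 17. ALAD, an early enzyme of heme synthesis, was higher (log2 1.34 ± 0.14), while HMOX1 and FDX1 were lower (log2 -1.51 ± 0.33 and -1.10 ± 0.18), with edgeR adjusted p-values of at most 0.0036.

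Among the PARP family outside TIPARP, 4 genes were higher and 2 lower in SK-N-AS of 13 that passed in each line. PARP9 had 1045 to 1237 counts in SK-N-AS and 0 in every KELLY library, at least 375-fold higher. PARP14 had 2762 to 3176 counts against 0 to 7. PARP12 and PARP10, which transfer single ADP-ribose units as TIPARP does, were higher by 4.66 ± 0.18 and 4.61 ± 0.33 on the log2 scale (edgeR adjusted p = 1.68e-07 and 3.98e-06).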

How the data were processed

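Total RNA of KELLY and SK-N-AS cells was read as 150-base paired-end reads. Per the methods of the study and the submitters' processing notes, reads were trimmed (Trimmomatic), aligned to GRCh38 and counted per gene with HTSeq 2.0.3 on GENCODE release 29. The aligner and the strand setting are not given in the sources used here. The authors deposited raw counts per gene, 1 table per line, not normalized, and samples were grouped by their labels.

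Here each contrast was fitted apart in edgeR 4.0.16 (R 4.3.3) after filterByExpr and TMM scaling, with the quasi-likelihood test and Benjamini-Hochberg adjustment over all genes that passed. CPM used total counts and RPKM the union of exons in GENCODE release 44, which matched 36194 names by symbol and 869 by an older symbol. The members, lists and rules were chosen with earlier results of these data known. All 7 members are named. From each list and contrast, up to 4 genes with an adjusted p under 0.05 and the largest change are named, otherwise up to 2 with the highest level. A gene that this rule would name is not reported here. Genes at 0 or 1 count in a line are given as counts, or as a bound against 3 counts per library. The GC trend was removed with a loess offset per library. Promoter windows came from RefSeq, and all 9 member windows equalled hg38. Alternatives were RLE factors, library size alone, no filter, at least 10 counts, DESeq2 1.42.0, limma-voom (limma 3.58.1), coding genes alone, all 12 samples in 1 fit, GC removal, the replicate number as a block, and each replicate left out. Fits were tested on simulated data: edgeR recovered 97 of 100 genes changed 2-fold in the SK-N-AS contrast and 70 of 100 in the DMSO contrast. At 24169796 to 29835670 counts per sample, counting intervals cover counting error only.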

Additional observations from a re-analysis of the deposited data

How the results depend on the processing

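In KELLY no member was called under any of the 18 alternatives. Between the DMSO samples 5 or 6 members were called under each of the 16 alternatives. This is no result about the module, since the main fit called 56.3% of the genes that passed in each line. CYP1A1 passed the filter through SK-N-AS alone, so its calls between the lines are no test. It dropped out with at least 10 counts asked of every sample. The SK-N-AS calls with Erastin rest on the values that chose the members and are a description of the fits, not a test. Their number was 3, among 106 calls over all genes. It became 0 among 46 with all 12 samples in 1 fit, and 5 among 946 with the GC trend removed. With the replicate block and the GC trend removed it was 5 among 1593. Leaving out 1 replicate gave 1 to 4 members, with CYP1B1 in every set, among 53 to 855 calls over all genes. No member's fold change changed sign in any contrast with a test or a call. Over the alternatives the SK-N-AS log2 fold change ranged from -1.17 to -1.01 for CYP1A1, from -0.65 to -0.52 for CYP1B1, from -0.62 to -0.49 for TIPARP and from -0.56 to -0.31 for AHRR. Deviations of same-numbered samples correlated at -0.58, -0.59 and -0.07 in KELLY, and at -0.37, 0.12 and -0.13 between the DMSO samples. No sample there was nearest to its own number. In SK-N-AS they correlated at -0.03, 0.10 and 0.18. Replicates 2 and 3 were nearest to their own number there, so pairing was not settled in SK-N-AS. With the replicate block, 4 members were called in SK-N-AS with Erastin, among 308 calls over all genes, and none in KELLY. ARNT then lost its call between the lines (adjusted p = 0.0731). The HMOX1 call in SK-N-AS was lost with all 12 samples in 1 fit (adjusted p = 0.051), as were those of NQO1 and FECH. The cause of these changes was not tested. Depth limits CYP1A2 in both lines and CYP1A1 in KELLY, where at most 3 counts were seen per library.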
